A study of Mus musculus with 26 samples.

Results

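The 48 genes described here encode the DNA replication machinery, from the proteins that mark and license origins to those that copy and seal the DNA at the fork. They were taken by gene symbol from a fixed list, and all 48 were found among the 55471 genes of the table and passed the filter on low counts, which left 18412 genes. They comprise 9 origin licensing genes, 12 genes of the replicative helicase, 6 of the sliding clamp and its loader, 11 of the polymerases and primase, and 10 fork accessory and maturation genes. The values are read counts per gene from 26 bulk RNA-seq libraries of KH2, a mouse embryonic stem cell line. Wild-type cells (WT) were set beside a line whose label gives a knock-out of NAP1L1 alpha (alphaKO) and a line whose label gives a knock-out of NAP1L1 without naming a form (fullKO). NAP1L1 is a histone chaperone. Each genotype was sampled at days 0, 2 and 4 of differentiation induced by retinoic acid, in triplicate, but for fullKO at day 0 with 2 libraries. The series' design text counts the knockouts as 2 lines, so a difference between genotypes cannot be told apart from a difference between lines. No untreated library of a later day was analysed here, so time in culture cannot be told apart from retinoic acid.

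A cell copies its genome once per division. In G1 the origin recognition complex (ORC) and the loading factors CDC6 and CDT1 place the ring of MCM proteins on DNA, and in S phase CDC45 and the GINS complex turn the ring into a moving helicase. Primase and polymerase alpha then start each strand, the RFC complex loads the PCNA clamp, polymerases epsilon and delta extend, and FEN1, DNA2 and DNA ligase I mature the lagging strand. Many of these genes are transcribed under E2F factors, which the RB family restrains. Mouse embryonic stem cells are known for a short G1 phase and a large share of cells in S phase. In bulk RNA, fewer replicating cells and less RNA per cell cannot be told apart.

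The libraries held 13537267 to 20569706 counts each. The 48 genes took 0.912% to 0.934% of the counts in WT at day 0 and 0.275% to 0.277% at day 4. Nap1l1, the targeted gene, differed from WT by -0.77, -0.47 and -0.20 on the log2 scale in alphaKO at days 0, 2 and 4, and by -1.36, -1.23 and -0.79 in fullKO. Reads per gene do not show the alpha form. The summed level of 10 pluripotent cell markers was 4175 to 4355 CPM (counts per gene scaled to a common library size with TMM factors) in WT at day 0 and 123 to 136 CPM at day 4. Values after ± are standard errors (SE) of log2 fold changes. They were derived from the test named below, as the absolute log2 fold change over the square root of its F statistic. "Rose", "fell", "higher" and "lower" are used of genes with an adjusted p under 0.05 in edgeR's quasi-likelihood test over all 18412 genes, and of nothing else but plain library values. The labels do not say that replicates came from separate cultures, so a p-value here sets a difference only against the spread among these libraries.

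Of the 48 genes, 39 had a promoter in RefSeq (GRCm38.p6), from 250 bases before the start site to 50 after it. Gins1, Gins2, Gins4, Gmnn, Mcm4, Pole, Prim2, Rfc2 and Tipin were not matched. Those of 6 genes are printed 5′ to 3′ on the gene's own strand, to set the 4 genes with a promoter that fell furthest in WT (Mcm10, Mcm5, Cdt1 and Pola1) beside the 2 genes that did not fall (Orc4 and Gins3). Capitals mark matches, on either strand, to 4 forms of the E2F motif, TTTCCCGC, TTTCGCGC, TTTGCCGC and TTTGGCGC. The windows are Mcm10 at chr2:5012742-5013041 (minus strand), Mcm5 at chr8:75109259-75109558 (plus), Cdt1 at chr8:122567765-122568064 (plus), Pola1 at chrX:93632106-93632405 (minus), Orc4 at chr2:48950185-48950484 (minus) and Gins3 at chr8:95633309-95633608 (plus).
Mcm10: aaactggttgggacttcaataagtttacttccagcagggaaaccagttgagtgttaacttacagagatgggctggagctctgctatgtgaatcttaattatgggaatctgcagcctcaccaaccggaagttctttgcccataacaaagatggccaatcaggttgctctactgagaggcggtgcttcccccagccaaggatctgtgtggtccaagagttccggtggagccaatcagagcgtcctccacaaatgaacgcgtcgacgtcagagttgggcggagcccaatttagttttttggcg
Mcm5: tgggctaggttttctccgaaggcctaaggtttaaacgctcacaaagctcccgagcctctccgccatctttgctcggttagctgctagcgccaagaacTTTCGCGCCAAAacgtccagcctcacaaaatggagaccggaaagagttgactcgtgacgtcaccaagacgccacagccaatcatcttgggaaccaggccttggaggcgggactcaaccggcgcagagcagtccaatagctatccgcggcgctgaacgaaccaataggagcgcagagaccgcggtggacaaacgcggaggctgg
Cdt1: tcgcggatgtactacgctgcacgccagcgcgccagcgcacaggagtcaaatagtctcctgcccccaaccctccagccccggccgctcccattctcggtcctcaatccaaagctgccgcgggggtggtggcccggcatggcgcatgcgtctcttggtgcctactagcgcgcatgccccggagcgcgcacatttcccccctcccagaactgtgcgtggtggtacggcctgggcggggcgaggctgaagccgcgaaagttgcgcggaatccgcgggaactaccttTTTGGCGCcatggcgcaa
Pola1: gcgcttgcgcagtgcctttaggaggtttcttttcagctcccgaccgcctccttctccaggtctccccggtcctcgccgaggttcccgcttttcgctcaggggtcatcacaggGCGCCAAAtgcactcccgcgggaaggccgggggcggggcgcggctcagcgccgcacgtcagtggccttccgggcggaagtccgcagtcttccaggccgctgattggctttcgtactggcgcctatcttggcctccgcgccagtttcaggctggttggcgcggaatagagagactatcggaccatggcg
Orc4: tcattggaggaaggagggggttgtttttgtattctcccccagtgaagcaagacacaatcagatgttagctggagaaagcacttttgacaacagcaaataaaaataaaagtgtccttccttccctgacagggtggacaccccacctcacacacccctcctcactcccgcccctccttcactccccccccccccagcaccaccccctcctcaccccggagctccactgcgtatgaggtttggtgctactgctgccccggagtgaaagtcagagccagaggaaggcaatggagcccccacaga
Gins3: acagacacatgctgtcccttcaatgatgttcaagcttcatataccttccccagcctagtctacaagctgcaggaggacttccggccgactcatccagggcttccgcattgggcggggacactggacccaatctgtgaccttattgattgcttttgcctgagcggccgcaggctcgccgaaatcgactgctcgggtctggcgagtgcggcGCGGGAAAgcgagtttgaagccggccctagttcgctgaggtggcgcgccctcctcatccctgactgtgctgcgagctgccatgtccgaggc

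At least 1 E2F match stood in the promoter of 15 of 39 members (38.5%), against 2.27% of the 32851 RefSeq promoters of the same length. The 2 sets are unlike. Each member has 1 promoter, the one nearest the annotated 5′ end of the gene. The 32851 are all entries, with no such choice and no filter on counts, here and for the other motifs below. Mcm5 had 2 overlapping matches, which begin at -153 and -149, counting from the start site as 0. Pola1 had 1 at -138 and Cdt1 had 1 at 32. Gins3, which did not fall, had a match at -41, while Mcm10, with the largest fall of all, and Orc4 had none in this window. The Mcm10 window ends in TTTGGCG, all but the last letter of TTTGGCGC, so a match across its edge would not be seen. Mcm6 held 3 matches, and Mcm3, Mcm7 and Rfc3 held 2 each. The remaining members with a match were Pole2, Pold1, Pold3, Orc1, Cdc6, Pole4 and Orc3. The letters CCAAT (NF-Y) stood in 59.0% of member promoters and 37.4% of all, GGGCGG (Sp1) in 66.7% and 35.7%, and TTTGAA or TTCGAA (CHR) in 15.4% and 19.2%. All were searched on both strands, and matches of different motifs may overlap. As a description of these 39 genes, the median log2 fold change in WT from day 0 to day 4 was -2.18 with an E2F match and -1.82 without.

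In WT cells most replication genes fell as the cells differentiated. Between day 0 and day 4, 46 of the 48 fell, 1 rose (Orc4) and 1 did not pass the test (Gins3), while 36.7% of all tested genes fell and 40.7% rose. The median log2 fold change was -1.96 for the 48 genes and 0.10 for all genes. At least a 2-fold fall was seen in 39 members, where 47.1% of all genes changed that far in either direction. At day 4 the WT cells held a median of 25.6% of their day 0 level, from 9.07% for Mcm10 to 141% for Orc4. In 46 members every WT library of day 4 lay below every library of day 0, as in 36.9% of all genes.

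**Figure D1:**
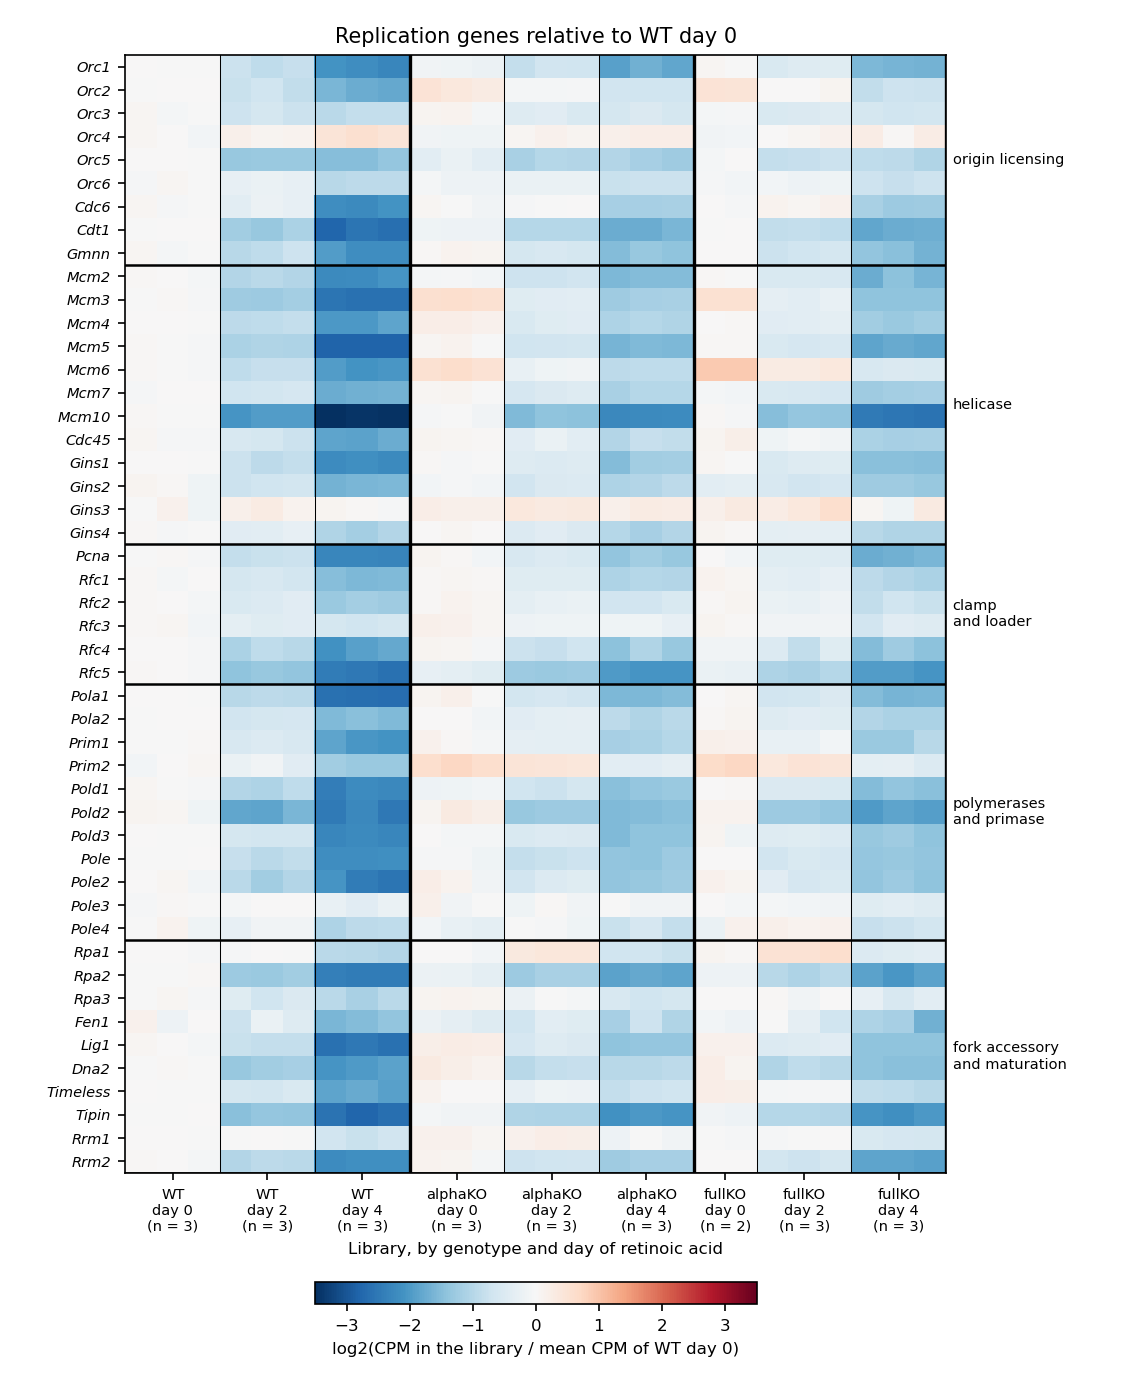
Level of each of the 48 genes (rows, by role) in each of the 26 libraries (columns, by genotype and day), as log2 of its CPM over the mean CPM of WT at day 0, blue for lower and red for higher. The WT columns of day 4 are bluest in most rows, Orc4 and Gins3 are the rows that do not turn blue, and Orc2, Mcm3, Mcm6 and Prim2 are red in both knockouts at day 0.

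Origin licensing genes gave 8 falls and 1 rise among 9. For this and the other roles, the shares of all genes over the 4 days were 36.7% that fell and 40.7% that rose. Cdt1, which brings the MCM ring to ORC, had 341, 347 and 345 CPM at day 0, 147, 138 and 161 at day 2, and 50.4, 58.2 and 54.8 at day 4. Its libraries of each day lay wholly below those of the day before, and it fell by 2.66 ± 0.05 on the log2 scale over the 4 days (adjusted p = 1.01e-38). Orc1, the large ATP-binding subunit of ORC, had 94.8, 92.7 and 91.6 CPM at day 0, 55.5, 50.03 and 53.1 at day 2, and 21.8, 20.8 and 18.96 at day 4. It fell by 2.18 ± 0.07 (adjusted p = 4.13e-31), again with no overlap between days.

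Orc4, another ORC subunit, went the other way. It had 52.3, 50.2 and 46.9 CPM at day 0, 56.5, 53.5 and 54.5 at day 2, and 68.6, 73.7 and 68.5 at day 4. It was the one member that rose over the 4 days, by 0.49 ± 0.06 (adjusted p = 4.27e-10). Its exons share 446 bases with Acvr2a and 136 with Mbd5, both on the other strand. Its smaller rise by day 2 of 0.14 ± 0.06 (adjusted p = 0.0426) did not pass with DESeq2 or with RLE scaling. The other ORC subunits fell by 0.87 (Orc3), by 0.93 (Orc6), by 1.44 (Orc5) and by 1.71 (Orc2). Cdc6, the loading factor, fell by 2.17, and Gmnn, which encodes geminin, the inhibitor of CDT1, fell by 2.11.

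Of the 12 helicase genes, 11 fell. Mcm10, which joins the helicase when origins fire, had 249, 242 and 239 CPM at day 0, 58.7, 62.7 and 63.1 at day 2, and 21.6, 22.5 and 22.1 at day 4. It fell by 3.46 ± 0.05 (adjusted p = 1.27e-41), the largest change among the 48. Mcm5, a subunit of the ring, had 965, 935 and 914 CPM at day 0, 437, 449 and 440.02 at day 2, and 134, 134 and 134 at day 4. It fell by 2.81 ± 0.04 (adjusted p = 1.01e-43), and its libraries of the 3 days did not overlap. The other ring subunits gave log2 fold changes of -2.60 (Mcm3), -2.17 (Mcm2), -2.03 (Mcm6), -1.96 (Mcm4) and -1.69 (Mcm7).

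The GINS subunits, which complete the active helicase, were less alike. Gins1 gave -2.19, Gins2 -1.602 and Gins4 -1.09 on the log2 scale. Gins3 had 21.1, 23.8 and 19.3 CPM at day 0, 24.3, 26.2 and 23.5 at day 2, and 22.9, 21.97 and 20.9 at day 4. Its libraries of days 0 and 4 overlapped, with a log2 fold change of 0.03 ± 0.10 (adjusted p = 0.774). Cdc45, the third component of the helicase, fell by 1.81. The exons of Gins2 share 2758 bases with Gse1 on the other strand, and whether reads were counted by strand is not given in the sources used here.

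All 6 genes of the clamp and its loader fell. Rfc5, a small RFC subunit, had 273, 266 and 257 CPM at day 0, 99.4, 105 and 102 at day 2, and 48.3, 46.6 and 43.6 at day 4, and fell by 2.52 ± 0.05 (adjusted p = 3.86e-38). Pcna, the clamp, had 273, 288 and 271 CPM at day 0, 154, 160.3 and 165 at day 2, and 56.9, 57.04 and 56.01 at day 4, and fell by 2.29 ± 0.05 (adjusted p = 1.05e-35). Both had left their day 0 range by day 2. Rfc3, another small subunit, moved least, with 54.96, 56.1 and 49.7 CPM at day 0, 42.4, 39.6 and 40.9 at day 2, and 34.95, 32.9 and 35.3 at day 4, and fell by 0.64 ± 0.07 (adjusted p = 3.81e-12). Rfc1, Rfc2 and Rfc4 gave -1.53, -1.25 and -1.93, and the exons of Rfc2 share 952 bases with Lat2 on the other strand. Those of Rfc5 share 499 bases with Wsb2, also on the other strand.

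All 11 polymerase and primase genes fell by day 4. Pola1, the catalytic subunit of polymerase alpha, had 179, 179.9 and 177 CPM at day 0, 91.3, 95.04 and 92.9 at day 2, and 29.3, 28.6 and 28.3 at day 4, and fell by 2.64 ± 0.05 (adjusted p = 2.42e-37). Pold2, an accessory subunit of polymerase delta, had 161, 158 and 136 CPM at day 0, 43.3, 42.4 and 49.7 at day 2, and 27.3, 31.6 and 27 at day 4, and fell by 2.40 ± 0.07 (adjusted p = 3.34e-32). Day 0 libraries of Pold2 stood further apart than those of Pola1, though none overlapped a later day. In polymerase delta, Pold1 gave -2.28 and Pold3 -2.27, and in polymerase epsilon, Pole gave -2.16 and Pole2 -2.35.

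The small histone-fold subunits of polymerase epsilon, Pole3 and Pole4, changed less. Pole4 fell by 0.95. Pole3 had 49.8, 52.5 and 50.9 CPM at day 0, 48.9, 51.7 and 51.2 at day 2, and 42.3, 38.6 and 43.9 at day 4, and fell by 0.30 ± 0.07 (adjusted p = 9.36e-05). Its days 0 and 2 overlapped. The primase subunits Prim1 and Prim2 gave -1.99 and -1.28, and Pola2 gave -1.52.

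The 10 fork accessory and maturation genes all fell. Tipin, which with TIMELESS stabilises the fork, had 283, 284 and 287 CPM at day 0, 103, 111 and 109 at day 2, and 47.9, 41.6 and 45.96 at day 4, and fell by 2.66 ± 0.05 (adjusted p = 2.38e-39). Lig1, DNA ligase I, had 393, 374 and 355 CPM at day 0, 216, 211 and 209.9 at day 2, and 61.8, 66.4 and 61.6 at day 4, and fell by 2.56 ± 0.04 (adjusted p = 4.63e-40). Neither gene's days overlapped. Timeless fell by 1.83 and Dna2, a nuclease and helicase, by 1.97. The subunits of RPA, which coats single-stranded DNA, parted, with -2.43 for Rpa2, -0.99 for Rpa1 and -1.01 for Rpa3.

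Ribonucleotide reductase, which makes deoxynucleotides, parted as well. Rrm2, its small subunit, fell by 2.16. Rrm1, the large one, had 318, 323 and 311 CPM at day 0, 315, 319 and 316 at day 2, and 199, 184 and 198 at day 4, and fell by 0.71 ± 0.04 (adjusted p = 3.23e-20), nearly all of it after day 2. The flap nuclease gene Fen1 had only 4.67 to 5.78 CPM at day 0 and fell by 1.48 ± 0.21. Its exons share 1909 bases with an antisense gene, Gm10143, so its counts are uncertain.

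The genes did not fall at the same time. From day 0 to day 2, 42 members fell and 1 rose (34% and 36.7% of all genes), with a median of -0.79 against 0.06 for all genes. From day 2 to day 4, 45 fell and 1 rose (29.2% and 30.2% of all genes), with a median of -1.11. Among the 45 members that fell by more than 0.5 in all, a median of 40.6% of the log2 fall was complete by day 2. Orc5 had completed 90.2%, Orc3 80.6% and Pold2 72.7%. At the other end were Rrm1 with 0.407%, Rpa1 with 1.72%, Cdc6 with 13.1%, Pole4 with 17.9% and Prim2 with 19.3%.

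Cdc6 and Rpa1 show the late course. Cdc6 had 111, 104 and 105 CPM at day 0, 82.5, 92.1 and 88.2 at day 2, and 23.7, 22.7 and 24.8 at day 4. Rpa1 had 412, 416 and 402 CPM at day 0 and 397, 413 and 406 at day 2, which overlap, before 212, 207 and 199.9 at day 4. Orc5 shows the early course, with 86.1, 85.3 and 83.4 CPM at day 0, 33.997, 34.7 and 34.7 at day 2, and 30.5, 30.1 and 32.97 at day 4, and its step after day 2 was -0.14 ± 0.07 (adjusted p = 0.0712).

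**Figure D2:**
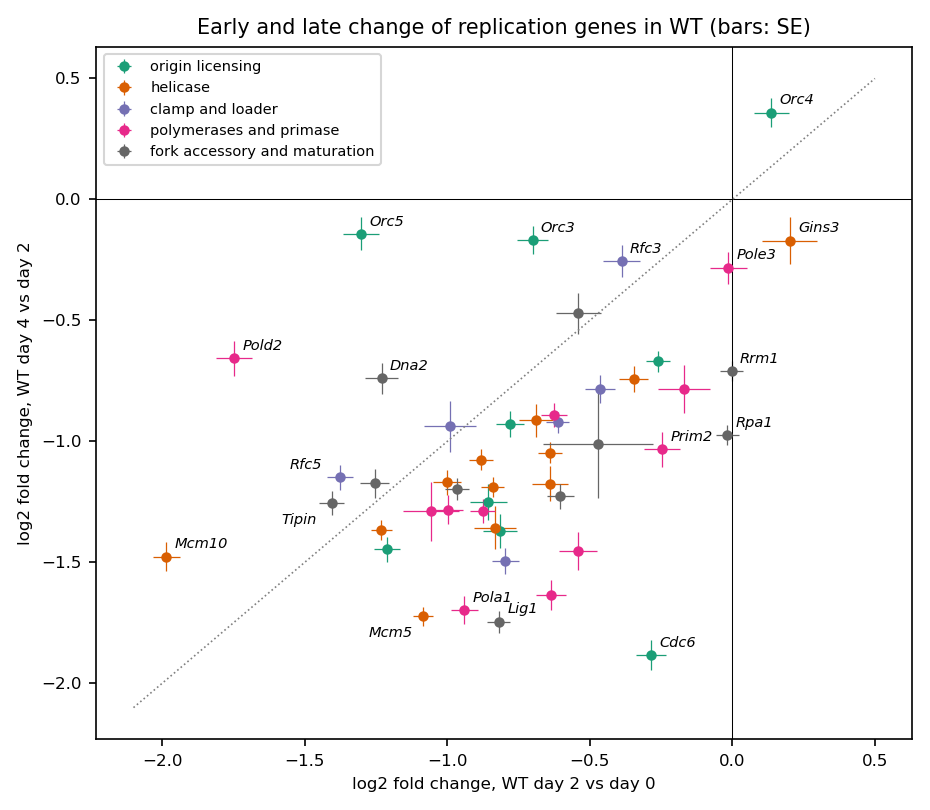
Log2 fold change in WT from day 0 to day 2 (horizontal) against day 2 to day 4 (vertical) for each of the 48 genes, coloured by role, with bars of 1 SE and a dotted line where both steps are equal. Orc5, Orc3 and Pold2 changed mainly by day 2, and Rrm1, Rpa1 and Cdc6 mainly after it.

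Set against each other per kilobase of exon, the 48 genes spanned a wide range of levels. In WT at day 0 Mcm5 had the highest level, 235 CPM per kb, followed by Mcm3 (180.1), Rrm2 (163), Tipin (152) and Mcm6 (144). The lowest were Orc4 (6.68), with an exon union of 7458 bases, and Fen1 (2.17). Fen1 shares 1909 of its 2422 exon bases with Gm10143, so its place is uncertain. Lengths were the union of annotated exons, so the order also depends on which annotated exons are used. For the 6 genes of the MCM ring, the levels per kb had a highest to lowest ratio of 4.54 in WT at day 0 and 3.14 at day 4. The ratio was 5.34 and 4.49 in alphaKO, and 5.19 and 5.79 in fullKO. Mcm2 was lowest in each of these 6 groups, and the highest was Mcm5 and Mcm7 in WT, Mcm3 in alphaKO and Mcm6 in fullKO at days 0 and 4. The exon union of Mcm2 is 6956 bases, beside 3589 (Mcm4) to 4666 (Mcm6) for the other ring genes. That length lowers its level per kb and widens these ratios.

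**Figure D3:**
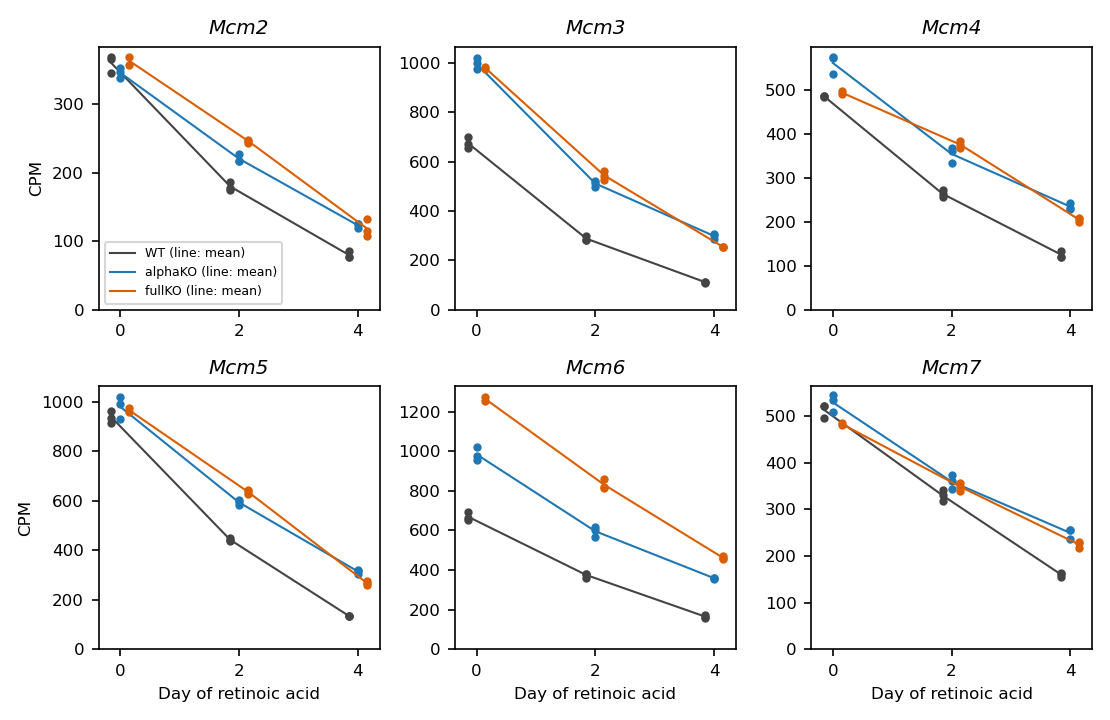
CPM of the 6 genes of the MCM2-7 ring by day of retinoic acid, with points for libraries and lines through group means, coloured by genotype. All 6 decline over the days in each genotype, and Mcm3 and Mcm6 lie higher in both knockouts already at day 0.

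Before retinoic acid, most replication genes were not called different from WT in either knockout. In alphaKO at day 0, 9 members were higher and 8 lower than in WT, beside 17.7% and 20.9% of all genes, with a median log2 fold change of 0.04. In fullKO 7 were higher and 4 lower, beside 16.2% and 17.7% of all genes, with a median of 0.02. The 7 became 11 with TMM factors from genes outside chromosomes 1, 14 and Y. No member differed 2-fold. Rfc5, of the clamp loader, was lower in both lines, with -0.35 ± 0.04 in alphaKO and -0.25 ± 0.05 in fullKO, and so was Rpa2, with -0.26 ± 0.05 and -0.17 ± 0.06. Cdt1 (-0.16) and Orc5 (-0.32) were lower in alphaKO, and Gins2 (-0.36) was lower in fullKO.

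The 4 members on chromosome 1 stood apart, and they were singled out after their values were seen. Mcm6, of the ring, had 694, 663 and 654 CPM in WT at day 0, 977, 1019.7 and 957 in alphaKO, then 1273 and 1255 in fullKO. Its log2 fold changes were 0.55 ± 0.04 and 0.91 ± 0.04. Prim2, of primase, had 47.2, 50.98 and 52.9 CPM in WT, 76.4, 82.8 and 75.9 in alphaKO, then 78.2 and 83.7 in fullKO (0.64 ± 0.06 and 0.69 ± 0.07). Every knockout library of these genes lay above every WT library. Mcm3 had 672, 698 and 657 CPM in WT, 998, 1019 and 974 in alphaKO, then 982 and 975 in fullKO (0.56 ± 0.04 and 0.53 ± 0.04). Orc2 had 173, 176 and 178 CPM in WT, 246, 229 and 212 in alphaKO, then 242 and 241 in fullKO (0.38 ± 0.05 and 0.46 ± 0.05). These too were without overlap. The exons of Orc2 share 1150 bases with Nif3l1 on the other strand, so its counts are uncertain. Without the 4, the median of the other 44 members was 0.02 in alphaKO, with 5 higher and 8 lower, and 0.01 in fullKO, with 3 higher and 4 lower.

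Chromosome 1 as a whole moved the same way. Its 1115 tested genes had a median at day 0 of 0.41 in alphaKO and 0.27 in fullKO, and 48.3% and 37.1% of them were higher than in WT. Among the tested genes within 5 Mb of each of the 4 members, medians ran from 0.36 to 0.61 in alphaKO and from 0.45 to 0.68 in fullKO. Copy number was not measured, and the part of the chromosome in these values was not tested. The genes lie on chromosome 1 (GRCm38) at 20802968 to 20820312 (Mcm3), 33453810 to 33669795 (Prim2), 58462771 to 58505109 (Orc2) and 128331590 to 128359664 (Mcm6).

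During differentiation the replication genes fell less far in both knockout lines. At day 2, 36 of 48 members were higher in alphaKO than in WT and 0 lower, beside 19.9% and 20.3% of all genes, with a median of 0.26. In fullKO 40 were higher and 0 lower, beside 23.8% of all genes in each direction, with a median of 0.35. By day 4, 43 were higher and 1 lower in alphaKO, beside 28.7% and 24% of all genes, and the median was 0.69 against 0.06 for all genes. In fullKO at day 4, 41 were higher and 1 lower, beside 25.1% and 24.5%, and the median was 0.57 against 0.02. At least 2-fold higher were 11 members in alphaKO and 5 in fullKO. Of all genes, 15.9% and 13.5% changed that far in either direction. Outside chromosome 1, 39 of 44 were higher and 1 lower in alphaKO, with a median of 0.63, and 37 and 1 in fullKO, with a median of 0.55.

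**Figure D4:**
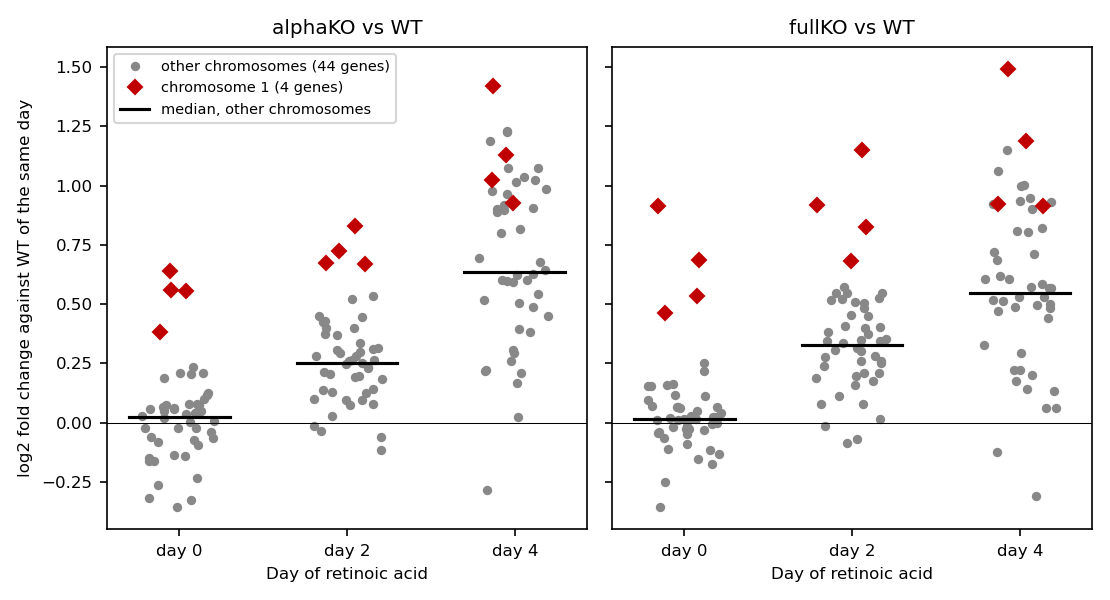
Log2 fold change of each of the 48 genes against WT of the same day, for alphaKO and fullKO, with the 4 chromosome 1 genes as red diamonds, the other 44 as grey points and the median of those 44 as a black line. The line stands at 0.02, 0.25 and 0.63 in alphaKO and at 0.01, 0.33 and 0.55 in fullKO at days 0, 2 and 4, while the diamonds are above 0 already at day 0.

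All role groups took part at day 4. Their counts are to be read beside 28.7% of all genes higher and 24% lower in alphaKO, and 25.1% and 24.5% in fullKO. Origin licensing genes gave 8 higher and 1 lower in alphaKO, and the same counts in fullKO, with medians of 0.39 and 0.57. Cdt1 stood at 103, 104 and 113 CPM in alphaKO and 97.4 to 105 in fullKO, while WT spanned 50.4 to 58.2. It was higher by 0.97 ± 0.05 and 0.90 ± 0.05. Cdc6 stood at 47.8, 47.9 and 48.999 CPM in alphaKO and 43.95 to 48.2 in fullKO, while WT spanned 22.7 to 24.8, so that it was higher by 1.02 and 0.95. No knockout library of either gene overlapped with WT. Orc1 was higher by 0.39 and 0.57. Orc4, the gene that rose in WT, was the lower one in both lines (-0.28 ± 0.06 and -0.31 ± 0.06). It stood at 56.7 to 58.5 CPM in alphaKO and 51.1 to 59.9 in fullKO, below the 68.5 to 73.7 of WT.

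Helicase genes were higher in 10 of 12 in alphaKO and 10 of 12 in fullKO, with medians of 0.90 and 0.70. Mcm10 stood at 50.98, 51.5 and 52.6 CPM in alphaKO and 40.9 to 43.4 in fullKO, while WT spanned 21.6 to 22.5 (1.23 ± 0.06 and 0.93 ± 0.06). Mcm5 stood at 306, 321 and 316 CPM in alphaKO and 261 to 275 in fullKO, with WT near 134 (1.23 ± 0.04 and 0.999 ± 0.04). These genes had the largest falls in WT, and neither overlapped with it in the knockouts. Gins3 (0.22 ± 0.09 in alphaKO and 0.06 ± 0.09 in fullKO) and Gins4 (0.03 ± 0.06 and 0.06 ± 0.06) did not pass the test in either line.

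Clamp and loader genes were higher in 6 of 6 in alphaKO and 5 of 6 in fullKO. Pcna stood at 106, 120.2 and 110.1 CPM in alphaKO and 83.1 to 91.4 in fullKO, while WT spanned 56.01 to 57.04 (0.99 ± 0.05 and 0.62 ± 0.05). Rfc5 was higher by 0.49 and 0.53. Rfc3 stood at 48.3, 48.2 and 44.3 CPM in alphaKO, above WT, while its 33.9 to 40.6 in fullKO overlapped the 32.9 to 35.3 of WT (0.14 ± 0.07, adjusted p = 0.0693).

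Polymerase and primase genes were higher in 10 of 11 in alphaKO and 9 of 11 in fullKO, with medians of 0.89 and 0.81. Pola1 stood at 59.5, 59.7 and 62.1 CPM in alphaKO and 58.3 to 62.2 in fullKO, while WT spanned 28.3 to 29.3 (1.07 ± 0.06 and 1.06 ± 0.06). Pold2 stood at 51.9, 52.4 and 54.6 CPM in alphaKO and 38.5 to 41.9 in fullKO, while WT spanned 27 to 31.6 (0.89 ± 0.07 and 0.48 ± 0.07). The knockout ranges of Pola1 overlapped each other and those of Pold2 did not. Pole3 was higher in alphaKO by 0.21 ± 0.07, and its value in fullKO was -0.12 ± 0.07 (adjusted p = 0.123).

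Fork accessory and maturation genes were higher in 9 of 10 in alphaKO and 9 of 10 in fullKO, and Fen1 did not pass the test in either. Lig1 stood at 141, 146 and 146 CPM in alphaKO and 139.6 to 142 in fullKO, while WT spanned 61.6 to 66.4 (1.19 ± 0.05 and 1.15 ± 0.05). Timeless stood at 98.4, 105 and 107 CPM in alphaKO and 89.3 to 95.5 in fullKO, while WT spanned 47.1 to 51.6 (1.07 ± 0.05 and 0.92 ± 0.05). Tipin, its partner, was higher by 0.60 and 0.59. From day 0 to day 2, 2 members rose in alphaKO (Rpa1 and Orc4) and 3 in fullKO (those and Cdc6, by 0.13 ± 0.06, adjusted p = 0.049), beside 34.5% and 33.5% of all genes. The fullKO calls of Cdc6 and Orc4 did not pass without replicate 2 of fullKO at day 0 or replicate 3 at day 2, and that of Cdc6 did not pass with DESeq2 or the replicate block. At day 2 Rpa1 stood at 519.6 to 542 CPM in alphaKO and 577 to 615 in fullKO, above the day 0 libraries of both lines, and it rose from day 0 by 0.40 ± 0.04 and 0.47 ± 0.04, where WT gave -0.02 ± 0.04.

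The change since day 0 was itself compared between genotypes, as a difference of log2 fold changes, which takes out the offsets at day 0. From day 0 to day 4, 44 of 48 members had a higher value in alphaKO than in WT and 0 a lower one, beside 24.2% and 19.7% of all genes, with a median difference of 0.68. In fullKO 40 had a higher and 0 a lower value, beside 19.5% and 15.7%, with a median of 0.58. From day 0 to day 2 the counts were 30 and 0 in alphaKO (17.5% and 14.8% of all genes), and 35 and 0 in fullKO (15.7% and 12.8%). At day 4 the 4 members on chromosome 1 had median differences of 0.61 in alphaKO and 0.52 in fullKO, beside 0.69 and 0.58 for the other 44. Mcm10 had the largest difference in alphaKO, 1.29 ± 0.07, and Pola1 in fullKO, 1.01 ± 0.08. Orc4, Gins3, Gins4 and Pole3 passed in neither line, with -0.14, 0.03, 0.00 and 0.19 in alphaKO and -0.20, -0.19, 0.00 and -0.10 in fullKO. Both comparisons share the WT libraries.

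The fall went on in the knockouts. From day 0 to day 2, 40 members fell in alphaKO and 38 in fullKO (33.5% and 31.4% of all genes), and from day 2 to day 4, 41 and 47 (28.1% and 28.9%). At day 4 alphaKO cells held a median of 45.2% of their own day 0 level and fullKO cells 41.05%. Mcm10 was the lowest member in each, at 22.2% and 17.4%.

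The knockout lines were also compared with each other. At day 0, 4 members were higher and 6 lower in alphaKO than in fullKO, beside 14.4% and 14.6% of all genes. The largest were Mcm6 (-0.36 ± 0.04), Orc5 (-0.30 ± 0.06) and Gins2 (0.28 ± 0.07). Orc5 stood at 66.01, 72.8 and 65.6 CPM in alphaKO, then 81.2 and 86.4 in fullKO, and Gins2 at 75.8, 79.5 and 76.8 CPM, then 63.4 and 63.9. Neither gene's lines overlapped. The count of 6 lower members became 3 without replicate 2 of alphaKO, or without either library of fullKO.

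At day 2, 1 member was higher and 15 lower in alphaKO, beside 13% and 12.3% of all genes. Mcm6 stood at 565, 604 and 619 CPM in alphaKO, then 819, 812 and 861 in fullKO (-0.48 ± 0.04). Orc1 stood at 51.9, 58.7 and 56.9 CPM, then 64.7, 68.05 and 68.97 (-0.27 ± 0.06), and Orc5 at 38.8, 42.3 and 42.1 CPM, then 47.7, 48.2 and 50.9 (-0.25 ± 0.06). In all 3 genes the lines did not overlap. Without replicate 1 of alphaKO at day 2, the 15 lower members became 9.

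At day 4, 16 members were higher and 5 lower in alphaKO than in fullKO, beside 17.4% and 15.4% of all genes. The 3 largest differences were in Rrm2, Dna2 and Rrm1. Rrm2 stood at 191, 204 and 202 CPM in alphaKO, 125, 125 and 122 in fullKO, and 99.1, 101.3 and 102 in WT (0.68 ± 0.04, adjusted p = 1.24e-16). Dna2 stood at 62.1, 61.5 and 63.5 CPM in alphaKO, 45.2, 43.4 and 43.7 in fullKO, and 28.8, 30.8 and 32.7 in WT (0.50 ± 0.06, adjusted p = 4.77e-09). Rrm1 stood at 278, 313 and 291 CPM in alphaKO, 219, 211 and 209 in fullKO, and 199, 184 and 198 in WT (0.47 ± 0.04, adjusted p = 9.56e-13). For all 3 genes fullKO lay between WT and alphaKO with no overlap. Pold2 and Pcna were higher in alphaKO by 0.40 and 0.37. In the other direction were Mcm6 (-0.36 ± 0.04), Rpa1 (-0.31 ± 0.04), Rpa3 (-0.22 ± 0.08), Orc5 (-0.19 ± 0.06) and Orc1 (-0.18 ± 0.07).

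The change from day 0 to day 4 was higher in alphaKO than in fullKO for 15 members and lower for 2, beside 14.1% and 13.8% of all genes, a comparison added after the data were seen. Rrm2 led with 0.64 ± 0.06, followed by Dna2 with 0.45 ± 0.08, and the lower ones were Rpa1 (-0.22 ± 0.06) and Rpa3 (-0.31 ± 0.12). Without replicate 1 of fullKO at day 0 the 15 became 6.

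**Figure D5:**
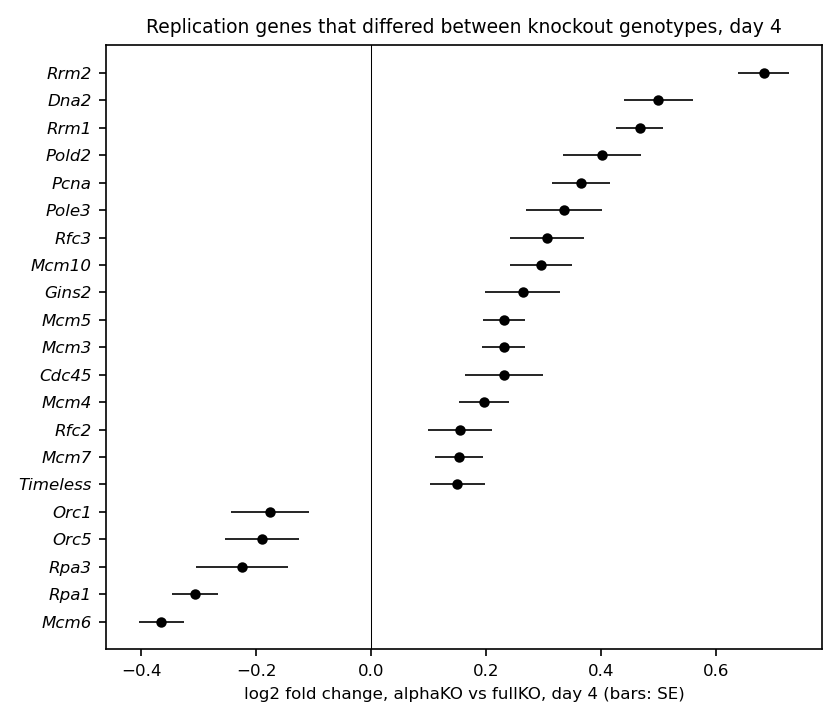
Log2 fold change of alphaKO against fullKO at day 4 for the 21 of 48 genes that differed between the lines, with bars of 1 SE. Rrm2, Dna2 and Rrm1 have the largest positive values (higher in alphaKO), and Mcm6 and Rpa1 the largest negative ones.

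Other genes of S phase were measured beside these 48. Their counts are to be read beside the shares of all genes, which were 36.7% lower and 40.7% higher in WT from day 0 to day 4, 28.7% higher and 24% lower in alphaKO at day 4, and 25.1% and 24.5% in fullKO. Of 22 other replication factors, 20 fell and 1 rose in WT from day 0 to day 4, led by Recql4 (-2.58), Chtf18 (-2.45), Top2a (-2.35) and Ticrr (-2.32). At day 4, 20 of them were higher and 1 lower in alphaKO than in WT, and 18 and 0 in fullKO. Dtl, part of the ubiquitin ligase that removes CDT1 in S phase, was higher by 1.30 ± 0.06 and 0.81 ± 0.06. At day 0 Dtl was already higher in alphaKO, by 0.63 ± 0.05, with -0.09 ± 0.06 in fullKO, so its change from day 0 to day 4 exceeded that of WT by 0.67 ± 0.08 in alphaKO and 0.90 ± 0.09 in fullKO. Of 13 nucleotide supply genes, 11 fell and 1 rose in WT, among them Tk1 (-2.39) and Dctd (-2.31). At day 4, 7 were higher and 2 lower in alphaKO, and 7 and 3 in fullKO. Tk1, thymidine kinase, was higher by 1.39 ± 0.10 and 0.70 ± 0.10, and Dtymk, thymidylate kinase, by 1.12 and 0.99. At day 0 Dtymk was already higher by 0.53 and 0.62, and its change from day 0 to day 4 exceeded that of WT by 0.59 and 0.37.

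Repair and translesion polymerases and their relatives, which serve damaged DNA, were more mixed. Of 19, 11 fell and 6 rose in WT, with a median of -0.24. Polk, a translesion polymerase, rose by 2.27 ± 0.08 and Rev3l, the catalytic subunit of polymerase zeta, by 1.56 ± 0.06, while Mcm8 fell by 1.53. At day 4, 8 were higher and 4 lower in alphaKO (beside 28.7% and 24% of all genes), and 9 and 2 in fullKO (beside 25.1% and 24.5%).

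Genes that govern entry into S phase went both ways. Of 23 E2F, RB and G1/S control genes, 16 fell and 7 rose in WT by day 4. Ccne1, cyclin E1, fell by 3.02 ± 0.05, and Fbxo5, an inhibitor of the anaphase-promoting complex, fell by 2.87 ± 0.06. Cdkn1a, which encodes p21, an inhibitor of cyclin-dependent kinases, had 64.4, 83.2 and 78.5 CPM in WT at day 0, 196, 189.7 and 189 at day 2, and 404, 409.9 and 404 at day 4. In alphaKO it had 61.6, 65.1 and 87.5 CPM at day 0, 97.1, 81.2 and 86.2 at day 2, and 161, 153 and 136 at day 4. In fullKO it had 61.1 and 56.00 CPM at day 0, 88.3, 74.8 and 78.1 at day 2, and 183, 189 and 202 at day 4. At day 0 WT and alphaKO overlapped and fullKO lay just below both (-0.36 ± 0.10 against WT), and at days 2 and 4 every WT library lay above every knockout library. At day 4 the differences from WT were -1.44 ± 0.08 and -1.08 ± 0.07. Of the 23 genes, 19 were higher and 3 lower in alphaKO at day 4 (beside 28.7% and 24% of all genes), and 11 and 6 in fullKO (beside 25.1% and 24.5%). E2f8, a repressing member of the E2F family, changed direction between days. It was lower than in WT at day 0 (-0.26 in alphaKO and -0.35 in fullKO), higher at day 2 (0.27 and 0.33) and lower at day 4 (-0.42 and -0.89). Its change from day 0 to day 4 differed from that of WT by -0.15 in alphaKO (adjusted p = 0.183) and by -0.54 in fullKO. The part of these genes in the replication gene values was not tested.

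Markers of cell state and of other cells also differed between the groups. The summed level of 15 fibroblast or feeder markers at day 0 was 2581 to 3438 CPM in WT, 1414 to 2175 in alphaKO, then 304 to 450.03 in fullKO. At that day 14 of the 15 were lower in each knockout, beside 20.9% of all genes in alphaKO and 17.7% in fullKO. At day 4 the fibroblast sums were 4562 to 4775, 1461 to 1847 and 1607 to 1847 CPM. The 44 members outside chromosome 1 had median log2 fold changes against WT of 0.02 in alphaKO and 0.01 in fullKO at day 0. At day 4 those medians were 0.63 and 0.55. Pluripotent cell markers at day 4 summed to 123 to 136 CPM in WT, 563 to 602 in alphaKO, then 793 to 812 in fullKO. Of these 10 markers, 10 and 9 were higher in the knockouts, beside 28.7% and 25.1% of all genes. At day 0 their sums were 4175 to 4355, 6651 to 6897 and 6881 to 7023 CPM, already above WT in both knockouts. At day 4 primitive endoderm markers summed to 572 to 676 CPM in WT, 1379.8 to 1576 in alphaKO and 916 to 1102 in fullKO. The 8 neural progenitor markers tested summed at day 4 to 638 to 718, 340.3 to 391 and 283 to 314 CPM. At day 0 these sums were 178 to 188, 112 to 114 and 114 to 117 CPM. Single markers went both ways in the fullKO change from day 0 to day 2 against WT. Zic2 (2.08), Olig2 (1.90) and Irx3 (1.82) had higher values and Nes (-1.16) and Sox1 (-0.61) lower ones, while Pax3, Pax6 and Zic1 were not called. Neuron markers at day 4 summed to 115 to 119.5, 136 to 182 and 108 to 109 CPM. Their sums at day 0 were larger, at 330 to 352, 463 to 475 and 578 to 608 CPM. The day 4 neuron sums alone therefore cannot be read as neuron content. Retinoic acid response genes summed to 916 to 954, 1131 to 1139 and 1174 to 1186 CPM at day 4, from 27.1 to 27.4 CPM in WT at day 0. The part of cell state and composition in the replication gene differences was not tested.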

How the data were processed

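Read counts per gene were deposited by the authors as whole numbers, with no normalization. Per the labels' protocols, RNA was taken with RNeasy Mini and libraries were made with KAPA Stranded mRNA-Seq, and per the submitters' processing notes FastQC, STAR 2.7.1a and mm10 were used. For the counting tool, strand setting and annotation: not given in the sources used here. Gene symbols and coordinates came from GENCODE M21 (GRCm38), which held 55230 of the 55471 genes.

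The counts were filtered with filterByExpr, scaled by TMM and fitted with edgeR 4.0.16 (R 4.3.3), with a mean for each of 9 groups and 17 residual degrees of freedom. The quasi-likelihood test was adjusted by Benjamini-Hochberg over 18412 genes, with a call at an adjusted p under 0.05. The common biological coefficient of variation was 0.0495, total counts were 13537267 to 20569706 per library, and no 2 libraries were identical. DESeq2 1.42.0, other scalings and filters, a replicate block and leaving out each library were alternatives. The self-check of the code used simulated counts.

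The members and lists were chosen with earlier results of these data known. Values in every library were given, by rule, for the 2 members of each role with the largest fall in WT and the member with the least change or a rise, and for the 3 largest differences between the knockout lines on each day. Up to 4 genes with the largest change were named from each further list. Of the genes this rule could name, 1 is not reported here. The other members shown by library (Cdc6, Rpa1, Timeless and those on chromosome 1) and Cdkn1a, Dtl, Dtymk and E2f8 by their role were chosen after their values were seen.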

Additional observations from a re-analysis of the deposited data

Results flagged for a closer look

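Results are listed here where the change over days differed between genotypes by a direct test of that difference (edgeR's quasi-likelihood test, adjusted over all genes). Against WT, the change from day 0 to day 2 was higher in alphaKO for 30 members and in fullKO for 35, and the change from day 0 to day 4 for 44 and 40. Of all genes, 17.5% and 15.7% had a higher change to day 2, and 24.2% and 19.5% to day 4. The single members listed for alphaKO from day 0 to day 4 had log2 differences of 1.292 (Mcm10), 1.167 (Mcm5), 1.13 (Cdt1), 1.053 (Pold1), 1.043 (Cdc6) and 1.017 (Timeless). For fullKO it was Pola1, with 1.012. Between the knockout lines the change from day 0 to day 4 was higher in alphaKO for 15 members and lower for 2. The shares of all genes were 14.1% and 13.8%.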

How the results depend on the processing

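Of 710 member calls, DESeq2 kept 703, RLE scaling 704, TMM from genes outside chromosomes 1, 14 and Y 697, no low-count filter 674, a mean of at least 1 CPM 709, only the groups compared 697 and library totals 662, with the rest no longer past the threshold but for 2. Those 2 changed sign under library totals, Orc6 in alphaKO (0.01985) and Rfc3 in fullKO (0.003059), both from day 0 to day 2, where that scaling moved the median of all genes by 0.115 and 0.194. In WT from day 0 to day 2 it moved that median by 0.178 and gave 38 members lower and 5 higher. The shift was 0.156 in WT from day 0 to day 4, 0.106 in fullKO against WT at day 4 and 0.127 in the fullKO change from day 0 to day 4, where 45 members were lower, 44 higher and 42 higher under that scaling. Leaving out 1 library at a time kept 4830 of 5102 calls and reversed 0.

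The day 0 count of 9 higher in alphaKO became 5 outside chromosome 1. The 7 higher in fullKO became 3 outside chromosome 1 and 11 with TMM from genes outside chromosomes 1, 14 and Y. The 6 lower in alphaKO than in fullKO at day 0 became 2 under library totals, and 3 to 5 with a library left out. The 15 lower at day 2 became 9 to 15 with a library left out. The 15 members whose change differed between the knockout lines became 6 under library totals and 6 to 16 with a library left out. The cause was not tested.

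With the replicate number as a block, 707 of 710 member calls were kept, and the genes called between alphaKO and WT at day 0 went from 7105 to 7022. Same-numbered libraries did not deviate together: the median correlation over 100 pairs was -0.004, 0 pairs were over 0.1, and 8 of 26 libraries correlated best with their own number. With the replicate block, 46 members were lower in WT at day 4 than at day 0, and 43 and 41 were higher in alphaKO and fullKO than in WT at day 4.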
